A study of Mus musculus with 18 samples.

Results

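The genes of the mitochondrial ribosomal proteins were followed in the prostates of TRAMP mice with wild-type, deleted or point-mutated Elac2. A gene was taken as a member when its Ensembl ID paired with a protein-coding mouse symbol beginning with Mrpl (large subunit) or Mrps (small subunit) and then a digit. This gave 78 of the 55469 gene IDs in each table, 49 named Mrpl and 29 named Mrps, on 17 chromosomes, and 5 pseudogenes with such names were left out. By the known make-up of the ribosome, 30 members belonged to the large subunit and had a bacterial counterpart, and 21 belonged to the large subunit and were particular to mitochondria, Mrps18a and Mrps30 among them in spite of their names. In the small subunit 16 members had a bacterial counterpart and 10 were particular to mitochondria. The remaining gene, Mrps36, carries the family name but encodes a part of the 2-oxoglutarate dehydrogenase complex.

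Mitochondria translate the few proteins that their own genome encodes, all of them subunits of the respiratory chain and ATP synthase, on a ribosome whose rRNAs are mitochondrial and whose proteins are encoded in the nucleus, made in the cytosol and imported. Compared with its bacterial relative this ribosome is poor in rRNA and rich in protein. Elac2 encodes the endonuclease that trims the 3′ end of precursor tRNAs in the nucleus and in mitochondria, where tRNAs also punctuate the long transcripts that hold the rRNAs.

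Total RNA of the ventral and lateral prostate lobes was sequenced from 18 male mice of the strain labelled C56NL/6N, 3 in each of 6 groups. Every mouse carried 1 copy of the TRAMP transgene (TRAMP +/-), in which a probasin promoter drives the SV40 T antigens in the prostatic epithelium, so there was no group without the transgene among these libraries. WT-TRAMP mice were ELAC2+/+. KO-TRAMP mice were ELAC2-/- through Pb-Cre, a recombinase under a probasin promoter that removes exon 8 of Elac2 in prostate epithelium, so the other cells of the lobes keep the gene. A537T-TRAMP mice were homozygous for ELAC2 Ala537Thr, an edited allele present in every tissue. Each line was sampled at 10 and at 30 weeks of age. Libraries are named here by the numbers the tables give them, 1 to 9 at 10 weeks and 10 to 18 at 30 weeks. The WT-TRAMP mice gave libraries 1 to 3 and 10 to 12, those of the point mutation 4 to 6 and 13 to 15, and those of the knockout 7 to 9 and 16 to 18. The authors normalized 4 tables separately, each holding 1 mutant line and the WT-TRAMP libraries of its age, so the KO-TRAMP and A537T-TRAMP comparisons of an age share their WT-TRAMP libraries. A normalized count is a gene's estimated number of reads after division by a factor for the size of its library. The labels number the mice within a group but do not tie those numbers to the library numbers.

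The libraries held between 9380174 and 14830104 reads. Elac2 itself, counted over the whole gene and all cells, did not pass the test in KO-TRAMP at 10 weeks (normalized counts of 301, 262 and 254 against 359, 289 and 307 in WT-TRAMP; log2 fold change -0.22, SE of 0.14, limma adjusted p = 0.808) or at 30 weeks (249, 267 and 251 against 251, 320 and 310; -0.19, SE 0.14, limma adjusted p = 0.522), and in A537T-TRAMP it stood at -0.09 and 0.05. Gene-level counts therefore did not show the loss of 1 exon, and the KO label could not be checked with them. None of the 10 luminal secretory epithelium markers was at 0 in any library, as the label of the tissue calls for, but some libraries stood apart. Genes of seminal vesicle secretion took over 1% of the reads in library 5 (9.06%), library 6 (1.38%) and library 9 (1.70%) at 10 weeks and in libraries 10, 12, 13 and 15 at 30 weeks (1.87% to 5.48%). Spink1 was on both the seminal vesicle and the luminal marker lists, and its part in these shares was not separated. In KO-TRAMP at 30 weeks, libraries 17 and 18 had Chga, which encodes the granule protein chromogranin A, at normalized counts of 6426 and 4005, against 1.03 in library 16 and 231, 0 and 119 in WT-TRAMP.

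Every member was counted in every library, with 46 to 850 reads each, and all 78 passed the filter of a mean normalized count of at least 10 in each table. Reads of all members together came to 0.145%, 0.153% and 0.159% of the reads (lowest, median and highest) in WT-TRAMP at 10 weeks and to 0.145%, 0.146% and 0.148% at 30 weeks, both in the tables that hold KO-TRAMP. To compare genes with each other, reads were divided by exon length and by the total of the library, in the unit RPKM. Exon length was that of all annotated exons of a gene merged, whether or not its transcripts in prostate use them. On this scale Mrps21, a small subunit protein with a bacterial counterpart, was highest in WT-TRAMP at 10 weeks at 34.6 ± 2.63 RPKM (SD, n = 3), and its 3 libraries did not overlap those of Mrpl18, the next gene, a protein of the central protuberance, at 24.4 ± 2.93. Mrpl10 of the ribosomal stalk (21.9 ± 0.938), Mrpl24 (21.5 ± 1.27) and Mrpl54 (21.5 ± 1.76) followed within their spread of each other. At the other end stood Mrps22 at 1.87 ± 0.118, Mrpl47 at 2.15 ± 1.08 and Mrpl13 at 2.48 ± 0.482 RPKM, which overlapped. At 30 weeks the 3 highest were Mrps21 (30.9 ± 2.87), Mrpl24 (23.5 ± 1.79) and Mrpl18 (21.1 ± 1.77), and the 3 lowest were again Mrps22 (1.95 ± 0.252), Mrpl47 (2.07 ± 0.853) and Mrpl13 (2.63 ± 0.267). This order depends on the annotation, since the merged exons span 739 bases in Mrps21 but 3991, 4419 and 7936 in Mrps22, Mrpl47 and Mrpl13. By mean normalized count, without division by length, Mrpl24 was highest and Mrpl22 lowest in each table. The order of the 78 levels was much alike in all libraries, with a Spearman correlation across genes of 0.911 to 0.981 between pairs of libraries, which share gene lengths and the way reads were assigned. Reads of 1 member are hard to assign, since Mrpl53 shares 84.4% of its 31-base words with Gm42688, a gene annotated over it on the same strand. Mrpl53 was 1 of 13 members that overlapped another gene on the same strand, and the counts of these members are less certain for that reason. Mrpl33 (Gm43809), Mrps6 (Slc5a3) and Mrps18c (Gm43511) were also among them.

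**Figure D1:**
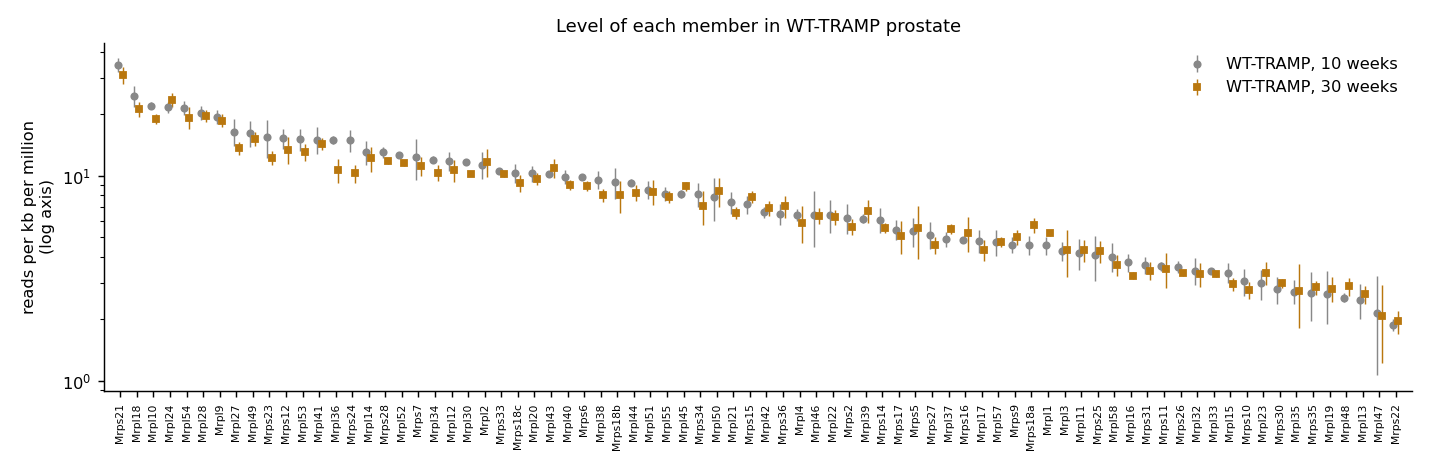
Level of each member in WT-TRAMP libraries at 10 and 30 weeks in RPKM (reads divided by exon length and library total) on a log axis, as the mean ± SD of 3 libraries. Mrps21 is highest at both ages (34.6 and 30.9) and Mrps22 lowest (1.87 and 1.95), with the 78 members spread between them.

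Promoters of these genes, which are spread over 17 chromosomes, were described by their sequence. A link between promoter sequence and the members' differences between groups was not tested. In RefSeq (GRCm38.p6), windows of 300 bases, 250 before and 50 after the annotated start, were found for 69 of the 78 members, 75 windows in all. Both strands were searched for the NRF1 palindrome (GCGC, any 2 bases, GCGC) and for CCGGAAG, the core bound by ETS factors such as GABPA, both factors known from background for nuclear genes of mitochondrial proteins. The first was present in 14 windows (18.7%) against 8.57% of the 21262 windows of protein-coding genes, the second in 26 (34.7%) against 11.6%, and at least 1 of them in 36 (48%) against 18.5%. The YY1 core AAGATGG stood in 13 windows (17.3% against 6.24%), while the E-box CACGTG stood in 7 (9.33% against 7.84%). Windows, not genes, were counted, and windows of the same gene can overlap. The windows of Mrpl2 that start at 46645971, 46645979 and 46645987 on chromosome 17 overlap, and each was counted for the E-box. A protein-coding gene started within 1000 bases on the opposite strand for 33 members (42.3%), against 2382 of 21938 protein-coding genes (10.9%), such as Apba3 beside Mrpl54, Fau beside Mrpl49, Ptcd2 beside Mrps27 and Ska3 beside Mrpl57. A match to these letters is a description of the sequence and no evidence of binding. The windows of 4 members described below are printed on the + strand of GRCm38.p6 from 5′ to 3′, with matches to the NRF1 or ETS letters on either strand in capitals. They were chosen to show the kinds found, which are an ETS core on the strand of the gene at chr5:31613701-31614000 (Mrpl33), an ETS core on the other strand at chr13:99344536-99344835 (Mrps27), 1 match of each kind at chr14:57825989-57826288 (Mrpl57) and 3 NRF1 palindromes with no ETS core at chr11:97315466-97315765 (Mrpl45, a gene with lower means in KO-TRAMP). The RefSeq start of Mrpl33 lies inside the longer GENCODE gene model over which its reads were counted.
Mrpl33: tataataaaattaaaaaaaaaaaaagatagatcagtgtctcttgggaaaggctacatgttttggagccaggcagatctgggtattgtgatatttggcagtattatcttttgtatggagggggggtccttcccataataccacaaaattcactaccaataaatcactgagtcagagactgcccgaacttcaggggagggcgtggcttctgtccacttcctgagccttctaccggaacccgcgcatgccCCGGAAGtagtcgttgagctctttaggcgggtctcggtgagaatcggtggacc
Mrps27: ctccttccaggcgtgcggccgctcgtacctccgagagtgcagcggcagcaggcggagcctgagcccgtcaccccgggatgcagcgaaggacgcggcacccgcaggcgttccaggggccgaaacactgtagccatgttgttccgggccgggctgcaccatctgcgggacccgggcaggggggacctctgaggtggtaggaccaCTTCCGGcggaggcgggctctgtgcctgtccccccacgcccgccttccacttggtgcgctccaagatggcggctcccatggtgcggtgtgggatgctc
Mrpl57: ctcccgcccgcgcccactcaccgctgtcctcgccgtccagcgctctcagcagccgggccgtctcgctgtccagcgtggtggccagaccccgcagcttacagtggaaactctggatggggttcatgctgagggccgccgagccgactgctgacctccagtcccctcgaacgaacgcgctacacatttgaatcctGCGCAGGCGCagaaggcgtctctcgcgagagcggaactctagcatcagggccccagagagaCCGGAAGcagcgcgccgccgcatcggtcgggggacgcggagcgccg
Mrpl45: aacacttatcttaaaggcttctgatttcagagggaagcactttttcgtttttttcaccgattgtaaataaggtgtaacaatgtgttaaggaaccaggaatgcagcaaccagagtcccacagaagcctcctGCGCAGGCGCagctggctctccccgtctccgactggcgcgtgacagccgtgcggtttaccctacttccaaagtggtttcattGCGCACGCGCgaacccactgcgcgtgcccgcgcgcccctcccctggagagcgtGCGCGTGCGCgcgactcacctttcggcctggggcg

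The first comparison asked whether loss of Elac2 in the epithelium altered these genes at the younger age. In KO-TRAMP at 10 weeks the members were little displaced as a family. Of the 78, 31 had a higher and 47 a lower mean than in WT-TRAMP (39.7% higher against 48.9% of all 15451 genes tested), with a median log2 fold change of -0.04 beside -0.01 over all genes. Single members ran from -0.41 to 0.45. Testing used limma on log2(normalized count + 1), with Benjamini-Hochberg adjustment over all genes and a threshold of 0.05. It called none of the members, where 0.0129% of all genes were called, and neither edgeR (0% of all genes) nor DESeq2 (0.524% of all genes) on the recovered reads called any. At an unadjusted limma p under 0.05 there was 1 member (1.28% against 6.64% of all genes).

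That member was Mrpl35, a large subunit protein with a bacterial counterpart (ENSMUSG00000052962.3, chr6:71812997-71826969, - strand of GRCm38). Its normalized counts were 192, 166 and 180.0 in KO-TRAMP and 128, 116 and 152 in WT-TRAMP, so all 3 KO-TRAMP libraries were above all WT-TRAMP libraries. Its log2 fold change of 0.45 (SE 0.16, adjusted p = 0.716) was the only one past 0.05 before adjustment. In total 5 members had groups that did not overlap (6.41% against 12% of all genes), of which Mrpl35 was higher (1.28% against 5.77%) and 4 were lower in KO-TRAMP (5.13% against 6.26%). One of the lower members was Mrpl10, the base of the stalk that recruits translation factors, with 371, 336 and 399 against 425, 459.9 and 424 and a log2 fold change of -0.25 (SE 0.11, adjusted p = 0.748). Mrpl45, which binds near the exit of the nascent peptide at the inner membrane, had 215, 208 and 197 against 241, 236 and 259.9 and a log2 fold change of -0.25 (SE 0.12, adjusted p = 0.761). The 2 other genes were Mrpl3, at -0.32 (SE 0.15, adjusted p = 0.756), and Mrpl44, a protein with an RNase III fold, at -0.31 (SE 0.18, adjusted p = 0.797). Mrps23 of the small subunit had the lowest p among members with lower means, at 236, 202 and 184 against 264, 229 and 345, but its groups overlapped through WT-TRAMP library 2 and its adjusted p was 0.742. Among higher means, Mrps6 (0.19), Mrpl52 (0.22) and Mrps16 (0.17) had the next smallest p, with adjusted p of 0.874 to 0.880.

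The 3 KO-TRAMP mice of 10 weeks were not alike. Against the WT-TRAMP means the median member stood at 0.07 in library 7 and 0.02 in library 9 on the log2 scale, with 53 and 43 of 78 members above, but at -0.26 in library 8, with 14 above. By role the medians were -0.08 for large subunit proteins with a bacterial counterpart (10 of 30 higher), 0.04 for those particular to mitochondria (12 of 21), -0.02 for small subunit proteins with a bacterial counterpart (7 of 16) and -0.09 for those particular to mitochondria (2 of 10). The family median moved from -0.10 without library 7 to 0.05 without library 8, so its sign rested on 1 mouse. These are mixed tissues, in which fewer cells of a type and less RNA per cell cannot be told apart. Smooth muscle markers were higher for 10 of 10 genes in KO-TRAMP at this age (median 0.82), and their part in the result was not tested. Without library 9, which held over 1% of seminal vesicle reads, 22 members had higher means and the median was -0.08.

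The second comparison put the same question to the point mutation. In A537T-TRAMP at 10 weeks, 23 members had higher and 55 had lower means (29.5% higher against 49.1% of all 15438 genes), and the median was -0.09 beside -0.01. The log2 fold changes of single members ran from -0.44 to 0.36. None was called by limma (0.00648% of all genes were), by edgeR (0%) or by DESeq2 (0.959%), and none reached an unadjusted limma p under 0.05 (7.89% of all genes did). Array weights, a form of limma in which libraries count unequally, also called none (0.0259% of all genes, and 0.0129% in KO-TRAMP of this age). In 7 members the groups did not overlap (8.97% against 13.4%), with 3 of them higher (3.85% against 6.92%) and 4 lower (5.13% against 6.53%) in A537T-TRAMP.

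The higher members included Mrpl24, whose bacterial relative acts early in assembly, at 564, 608 and 588 against 462, 533 and 508 (log2 fold change 0.23, SE of 0.12, limma adjusted p = 0.603), and Mrpl43 at 221, 192 and 175 against 165, 161 and 158 (log2 fold change 0.27, SE of 0.16, limma adjusted p = 0.607). Their groups were apart in all 6 libraries. Mrps18a, which sits in the large subunit, had 219.7, 256 and 195 against 159, 198 and 167, where 1 WT-TRAMP and 1 A537T-TRAMP library crossed (limma adjusted p = 0.600), and Mrpl35 stood at 0.36 (SE 0.21, adjusted p = 0.610). On the lower side, Mrpl38, a protein with a phosphatidylethanolamine-binding fold, had 216, 201 and 233 against 255, 236 and 287 (log2 fold change -0.25, SE of 0.15, limma adjusted p = 0.610), with all A537T-TRAMP libraries below all WT-TRAMP libraries. Mrpl30 was apart in the same way, at 377, 298 and 319 against 394, 412 and 384 (log2 fold change -0.27, SE of 0.14, limma adjusted p = 0.603). The lowest log2 fold changes belonged to Mrps10 (-0.44, SE 0.20, adjusted p = 0.600) and Mrpl9 (-0.38, SE 0.20, adjusted p = 0.603), whose groups overlapped, and Mrps18c stood at -0.36 (SE 0.21, adjusted p = 0.607).

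The 3 A537T-TRAMP mice of 10 weeks differed among themselves as well. Library 4 had a median of 0.18 with 62 of 78 members above the WT-TRAMP mean, while libraries 5 and 6 had -0.21 and -0.23 with 18 and 15 above. Libraries 5 and 6 were those with 9.06% and 1.38% of their reads in seminal vesicle genes, against 0.331% in library 4. Without them 62 members were higher in library 4 than in WT-TRAMP and the median became 0.18, from 1 mouse. All 9 seminal vesicle markers were above 0 in the 3 A537T-TRAMP libraries, and 2 to 4 of them were at 0 in each WT-TRAMP library of this age. Smooth muscle markers had higher means for 10 of 10 genes (median 1.60), and the part of either marker list in the members' lower means was not tested.

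The third comparison was the knockout at the older age. In KO-TRAMP at 30 weeks, 66 of 78 members had higher means than in WT-TRAMP (84.6% against 50.9% of all 16900 genes), and the median log2 fold change was 0.25 beside 0.01 over all genes, with single members from -0.38 to 0.80. No single member passed the test, with 0 called by limma (0.213% of all genes were called), 0 by edgeR (0.0888%) and 0 by DESeq2 (4.76%). With array weights, whose estimation did not converge here, limma called 53 members (67.9%) but also 63.6% of all genes. At an unadjusted limma p under 0.05 there were 14 members, all with higher means (17.9% against 13.5% of all genes, and against 7.7% in that direction). The groups did not overlap in 29 members (37.2% against 20.2% of all genes), 26 of them higher (33.3% against 10.8%) and 3 lower (3.85% against 9.48%). Reads of all members together came to 0.158%, 0.178% and 0.201% of the reads in KO-TRAMP (lowest, median and highest) and to 0.145%, 0.146% and 0.148% in WT-TRAMP, which did not overlap.

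Both subunits had higher means, 45 of 51 large subunit members with a median of 0.27 and 20 of 26 small subunit members with a median of 0.18. Within the large subunit, proteins particular to mitochondria had a median of 0.33 (18 of 21 higher) and those with a bacterial counterpart 0.26 (27 of 30 higher). Within the small subunit 11 of 16 members with a bacterial counterpart (median 0.16) and 9 of 10 particular to mitochondria (median 0.20) had higher means.

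The smallest p belonged to Mrpl54, a large subunit protein particular to mitochondria (ENSMUSG00000034932.4, chr10:81264713-81266934, - strand of GRCm38). It had normalized counts of 231, 289 and 278 in KO-TRAMP and 205, 179 and 166 in WT-TRAMP, or 266 ± 30.6 against 183 ± 19.6 (SD, n = 3). The lowest KO-TRAMP library lay above the highest WT-TRAMP library, and the log2 fold change of 0.54 (SE 0.16, adjusted p = 0.327) did not pass the threshold. Mrpl49 (ENSMUSG00000007338.10, chr19:6053622-6057785, - strand), also particular to mitochondria, had 394, 451 and 423 against 308, 317 and 359 (log2 fold change 0.37, SE of 0.12, limma adjusted p = 0.343). Mrpl33 (ENSMUSG00000106918.3, chr5:31596935-31664384, + strand), with a bacterial counterpart, had 331, 427 and 352 against 279.8, 289.8 and 271 (log2 fold change 0.39, SE of 0.14, limma adjusted p = 0.354), and Mrpl16, which faces the site where aminoacyl-tRNA enters, had 147, 163 and 167 against 121, 115 and 122 (log2 fold change 0.41, SE of 0.15, limma adjusted p = 0.354). In each of these 3 genes all KO-TRAMP libraries again lay above all WT-TRAMP libraries.

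Members fixed for their role gave further values. Mrpl11, at the base of the stalk, had 185, 236 and 235 against 156, 146 and 184 (log2 fold change 0.43, SE of 0.17, limma adjusted p = 0.366), and Mrpl12, which forms the flexible part of the stalk, had 236, 264 and 216 against 161, 211 and 194 (log2 fold change 0.34, SE of 0.16, limma adjusted p = 0.399). The groups did not overlap in either gene. Mrpl58, a release factor that became a part of the large subunit, stood at 167, 226 and 189 against 149, 153 and 123 (log2 fold change 0.45, SE of 0.18, limma adjusted p = 0.368), without overlap. The paralogues Mrps18a, Mrps18b and Mrps18c had log2 fold changes of -0.11, 0.15 and 0.54. Mrps18c, which takes the place of the bacterial protein in the small subunit, had 139, 203 and 165 against 123, 105 and 116, again apart in all 6 libraries (adjusted p = 0.355). Mrps21 and Mrps22, the members of highest and lowest level, stood at 0.32 (SE 0.13, adjusted p = 0.365) and 0.61 (SE 0.24, adjusted p = 0.366). Mrpl41 (0.34), Mrps30 (0.25) and Mrpl44 (0.13) had higher means, while Mrps28 (-0.03) and Mrps36 (0.08), the dehydrogenase protein, were near 0.

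Among the 12 members with lower means, the smallest p belonged to Mrps6, at 155, 96.2 and 120.1 against 154, 152 and 169 (log2 fold change -0.38, SE of 0.21, limma adjusted p = 0.436), which overlapped through library 16. The 3 lower members without overlap were Mrps9, at 297, 292 and 287 against 323, 368 and 311 (log2 fold change -0.19, SE of 0.12, limma adjusted p = 0.469), Mrpl45, at 239, 221 and 256 against 265, 256 and 280.4 (log2 fold change -0.17, SE of 0.13, limma adjusted p = 0.527), and Mrpl1, at 244, 239.8 and 233 against 263, 272 and 252 (log2 fold change -0.13, SE of 0.12, limma adjusted p = 0.571). Their differences were small beside those of the higher members.

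The 3 KO-TRAMP mice of 30 weeks differed among themselves. The median member stood 0.12 above the WT-TRAMP mean in library 16 (56 of 78 members above), 0.42 in library 17 (65 above) and 0.24 in library 18 (61 above). The largest fold changes of the family, singled out after their values were seen, followed that order. Mrps33 had 167, 528 and 424 in libraries 16, 17 and 18 against 194, 206 and 190.4 in WT-TRAMP (log2 fold change 0.76, SE of 0.42, limma adjusted p = 0.430), so library 16 lay below every WT-TRAMP library and the other 2 far above. Mrpl34 had 79.2, 196 and 129 against 78.3, 68.1 and 70.7 (log2 fold change 0.80, SE of 0.34, limma adjusted p = 0.376). Without library 16, limma called 5 members at an adjusted p under 0.05 (6.41% against 18.1% of all genes), which were Mrps33, Mrpl34, Mrpl20, Mrpl54 and Mrps22.

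Libraries 17 and 18 also stood apart in other cell types. The 9 neuroendocrine markers took 0.163% and 0.103% of their reads, against 0.0026% in library 16 and 0.0028% to 0.0313% in WT-TRAMP, with no marker at 0 in libraries 17 and 18 and 5 of 9 at 0 in library 16. The 10 proliferation markers took 0.288% and 0.203%, against 0.0839% in library 16 and 0.0858% to 0.142% in WT-TRAMP, and 10 of 10 had higher means in KO-TRAMP (median 0.74). Luminal markers had higher means for 2 of 10 genes (median -0.92), and all 6 macrophage markers had higher means (median 1.20). All 4 adipose markers tested had lower means (median -3.34), but their share of reads overlapped between the groups (0.000418% to 0.00446% against 0.00309% to 0.00905%). Library 16, with neuroendocrine and proliferation markers just below the WT-TRAMP range, had 56 members above the WT-TRAMP mean, with a median of 0.12. Libraries 17 and 18, with the higher shares of both, had 65 and 61 members above and medians of 0.42 and 0.24. The part of any of these cell types in the members' values was not tested. Without WT-TRAMP libraries 10 and 12, which held over 1% of seminal vesicle reads, 61 members had higher means and the median was 0.20, against the single remaining WT-TRAMP mouse.

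**Figure D2:**
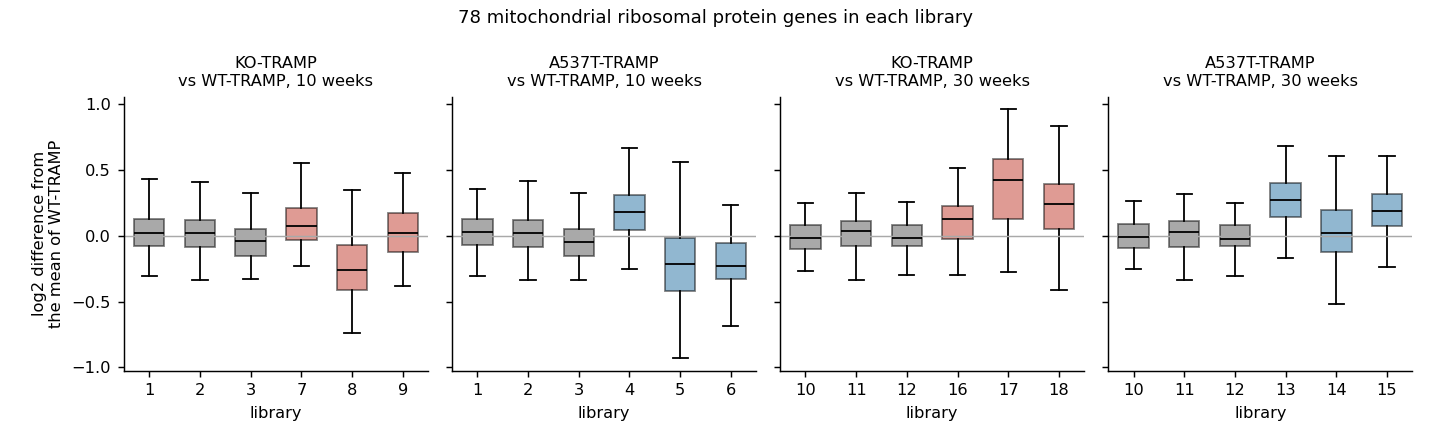
Difference of each member from its WT-TRAMP mean in each library (log2 normalized count + 1), drawn as box plots of 78 members with the median as a line, quartiles as the box and whiskers to 1.5 interquartile ranges, without outlying points. The WT-TRAMP libraries form the mean they are compared with, and the medians run from -0.26 (library 8) to 0.42 (library 17).

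The last comparison was the point mutation at the older age. In A537T-TRAMP at 30 weeks, 66 of 78 members had higher means (84.6% against 50% of all 16261 genes), with a median of 0.17 beside 0.00 over all genes and single members from -0.39 to 0.51. The count equals that of KO-TRAMP, but both are set against the same 3 WT-TRAMP mice and neither count is independent of the other. None of the members was called by limma (0% of all genes were), by edgeR (0%) or by DESeq2 (1.01%). Array weights, again without converging, called 23 members (29.5% against 20.8% of all genes). There were 8 members at an unadjusted limma p under 0.05 (10.3% against 7.21% of all genes), 7 of them with higher means (8.97% against 3.98%). Groups did not overlap in 17 members (21.8% against 13.4%), 15 of them higher (19.2% against 7.36%) and 2 lower (2.56% against 6.03%).

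The medians by role were 0.12 for large subunit proteins with a bacterial counterpart (24 of 30 higher), 0.17 for those particular to mitochondria (19 of 21), 0.19 for small subunit proteins with a bacterial counterpart (14 of 16) and 0.15 for those particular to mitochondria (9 of 10). The smallest p belonged to Mrps27, a small subunit protein of pentatricopeptide repeats that binds RNA (ENSMUSG00000041632.7, chr13:99344786-99415562, + strand of GRCm38). Its normalized counts were 147, 149 and 144 in A537T-TRAMP and 90.6, 109 and 109.9 in WT-TRAMP, or 147 ± 2.84 against 103 ± 10.98 (SD, n = 3). The A537T-TRAMP libraries were close together and all above WT-TRAMP, and the log2 fold change of 0.51 (SE 0.15, adjusted p = 0.590) did not pass. In KO-TRAMP of the same age Mrps27 stood at 0.10.

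Mrpl33 had 303, 318 and 324 against 260.3, 268 and 252 (log2 fold change 0.28, SE of 0.10, limma adjusted p = 0.684). Mrpl57 (ENSMUSG00000021967.4, chr14:57826234-57829296, + strand), particular to mitochondria, had 229, 184 and 209 against 149, 169 and 162 (log2 fold change 0.37, SE of 0.14, limma adjusted p = 0.684). Mrpl38 (ENSMUSG00000020775.13, chr11:116131817-116138868, - strand) had 279, 310.0 and 262 against 213, 248 and 213 (log2 fold change 0.34, SE of 0.13, limma adjusted p = 0.684). In all 3 genes every A537T-TRAMP library was above every WT-TRAMP library. Mrps18b, a paralogue in the small subunit, had 228, 272 and 231 against 152, 219 and 171 (log2 fold change 0.44, SE of 0.17, limma adjusted p = 0.684), while Mrps18a and Mrps18c stood at 0.18 and 0.27. Mrps12, whose bacterial relative takes part in the accuracy of decoding, had 249.9, 182 and 224 against 197, 159 and 154 (log2 fold change 0.36, SE of 0.17, limma adjusted p = 0.706), with 1 A537T-TRAMP library inside the WT-TRAMP range. Mrpl36, the counterpart of a very short bacterial protein, had 174, 180.1 and 158 against 126, 124 and 156 (log2 fold change 0.34, SE of 0.15, limma adjusted p = 0.702), without overlap.

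The 1 lower mean past an unadjusted limma p of 0.05 was that of Mrpl19, with 142, 129 and 156 against 214, 169 and 175 (log2 fold change -0.38, SE of 0.15, limma adjusted p = 0.684), where all A537T-TRAMP libraries were below WT-TRAMP. Mrps9 did not overlap either, at 269.5, 280.2 and 267 against 296, 334 and 283 (log2 fold change -0.16, SE of 0.11, limma adjusted p = 0.794). Mrps35 (-0.39) and Mrpl3 (-0.17) overlapped. Of the members fixed for their role, Mrpl11 stood at 0.38, Mrpl12 at 0.26, Mrpl41 at 0.24, Mrpl44 at 0.17, Mrpl45 at -0.06, Mrpl58 at 0.15, Mrps28 at 0.25, Mrps30 at 0.01 and Mrps36 at -0.01 on the log2 scale.

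By mouse, the median member stood at 0.27 in library 13 (68 of 78 members above the WT-TRAMP mean), 0.02 in library 14 (43 above) and 0.19 in library 15 (65 above). Libraries 13 and 15 were also the A537T-TRAMP libraries with over 1% of reads in seminal vesicle genes, as were WT-TRAMP libraries 10 and 12, and the part of this in the result was not tested. Leaving these 4 libraries out would keep 1 mouse in each group, and no test was possible on them. Proliferation markers had higher means for 7 of 10 genes with a median of 0.09, and neuroendocrine markers for 1 of 9 with a median of -2.04. Luminal markers had higher means for 8 of 10 (median 0.26). The adipose list of 5 genes took 0.000219% to 0.000926% of the reads in A537T-TRAMP and 0.0031% to 0.00905% in WT-TRAMP, without overlap, and the 4 genes tested all had lower means (median -3.62). The part of these cells in the members' values was not tested.

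**Figure D3:**
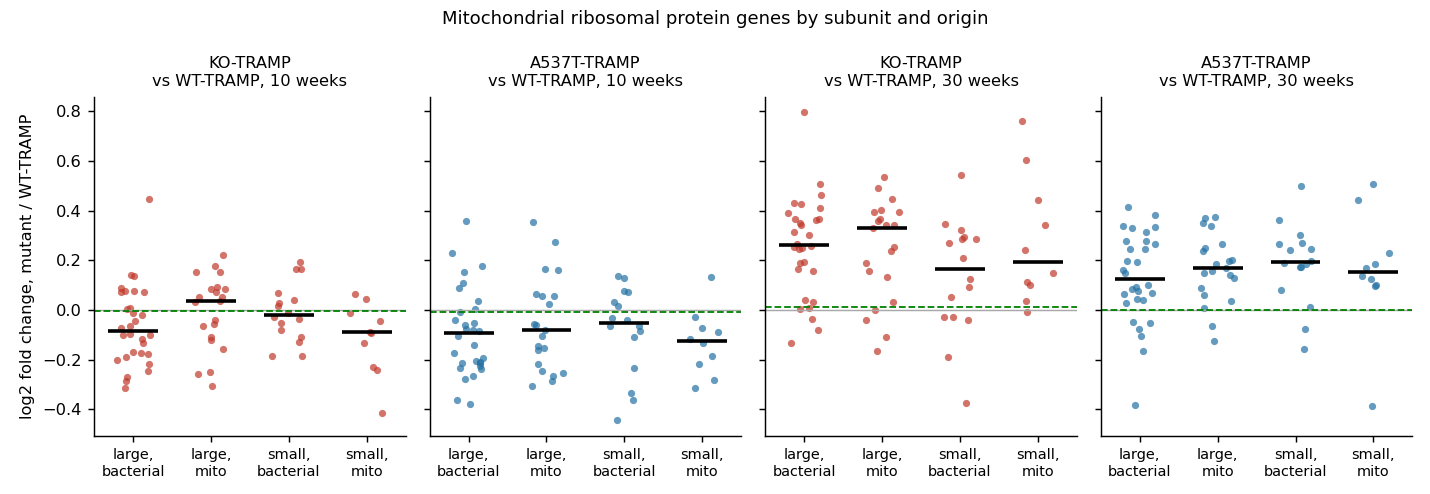
Log2 fold change against WT-TRAMP of each large and small subunit member, grouped by role, in the 4 comparisons. Mrps36, which belongs to neither subunit, is not drawn. With Mrps36 counted, 66 of 78 members had higher means in both 30 week comparisons, against 31 (KO-TRAMP) and 23 (A537T-TRAMP) at 10 weeks.

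Whether the mutant effect differed between the ages was tested gene by gene, as the effect at 30 weeks minus the effect at 10 weeks. In KO-TRAMP this difference was positive for 69 of 78 members (88.5% against 50.3% of all 16431 genes) with a median of 0.29 beside 0.00, and in A537T-TRAMP for 64 (82.1% against 50.5% of all 15941 genes) with a median of 0.27 beside 0.01. No member passed in either line by limma, nor did any gene (0% and 0%), while 10 members in KO-TRAMP and 6 with the point mutation had a positive difference at an unadjusted limma p under 0.05. These were 12.8% against 6.31% of all genes (13.1% in either direction) and 7.69% against 2.66% (6.36% in either direction). Array weights that did not converge called 19 members (24.4% against 31.6% of all genes) and 14 (17.9% against 10.3%). In KO-TRAMP the smallest p values belonged to Mrps23, with a difference of 0.86 (SE 0.25, adjusted p = 0.258), Mrpl54, with 0.64 (SE 0.20, adjusted p = 0.276), and Mrpl33, with 0.56 (SE 0.20, adjusted p = 0.320). For Mrps23 the means were lower in KO-TRAMP at 10 weeks and higher at 30 weeks, where it had 301, 354 and 255 against 236, 211 and 215. In A537T-TRAMP they belonged to Mrpl38, with 0.59 (SE 0.18, adjusted p = 0.721), Mrps18c, with 0.63 (SE 0.24, adjusted p = 0.721), Mrps27, with 0.63 (SE 0.24, adjusted p = 0.721), and Mrps10, with 0.62 (SE 0.23, adjusted p = 0.721). Mrpl38 had all 3 A537T-TRAMP libraries below WT-TRAMP at 10 weeks and all 3 above at 30 weeks.

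**Figure D4:**
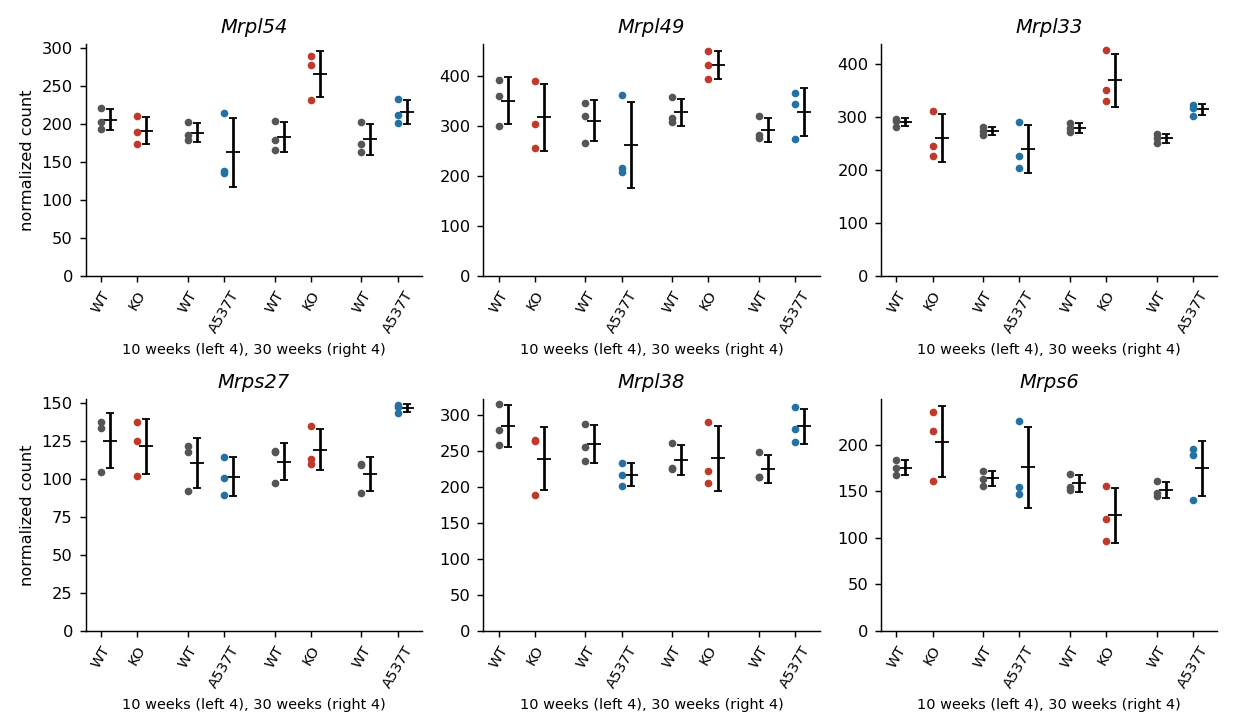
Normalized counts of Mrpl54, Mrpl49, Mrpl33, Mrps27, Mrpl38 and Mrps6 in each library of the 4 tables, with points for libraries and the mean ± SD of 3. Mrpl54 lies at 231 to 289 in KO-TRAMP against 166 to 205 in WT-TRAMP at 30 weeks, and Mrpl38 lies below WT-TRAMP at 10 weeks and above it at 30 weeks in A537T-TRAMP.

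The other genes of the pathway were taken from lists of known function, and limma, edgeR and DESeq2 called none of them in any of the 4 comparisons, in which 0% to 0.213%, 0% to 0.0888% and 0.524% to 4.76% of all genes were called. At an unadjusted limma p under 0.05 there were 2 of the 5 other subunits, 1 of the 25 assembly genes and 2 of the 13 translation factors in KO-TRAMP at 30 weeks (13.5% of all genes), and 1 of each list with the point mutation at that age (7.21%). Array weights that did not converge called 4, 9 and 7 of the same lists in the knockout (63.6% of all genes) and 2, 5 and 3 with the point mutation (20.8%). The 5 subunits of the mitochondrial ribosome that carry other names had higher means for 5 of 5 in KO-TRAMP at 30 weeks (median 0.25) and 4 of 5 in A537T-TRAMP at 30 weeks (0.24), against 1 of 5 in each line at 10 weeks (-0.07 and -0.08). Gadd45gip1, a large subunit protein, had 334 ± 160 against 142 ± 13.8 in KO-TRAMP at 30 weeks (SD, n = 3; log2 fold change 1.09, SE of 0.40, limma adjusted p = 0.358), and Chchd1 of the small subunit had 294 ± 35.3 against 228 ± 6.96 (0.36, SE 0.14, limma adjusted p = 0.365). The 25 genes of ribosome assembly and rRNA modification were spread around 0, with higher means for 10 in KO-TRAMP (median -0.05) and 11 in A537T-TRAMP (median -0.04) at 30 weeks. Among them Mettl17, an assembly factor of the small subunit, had 176 ± 24.6 against 302 ± 72.5 in KO-TRAMP at 30 weeks (-0.76, SE 0.22, limma adjusted p = 0.327). The 13 translation factors and partners had higher means for 7 (median 0.06) and 8 (median 0.07) at 30 weeks.

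The proteins of the cytosolic ribosome offered a comparison with the other translation machinery of the same cells. Of 79 such genes, 47 had higher means with the knockout and 17 with the point mutation at 10 weeks (medians 0.01 and -0.08), and 66 and 73 at 30 weeks (medians 0.12 and 0.10). None was called by limma, edgeR or DESeq2 in the 4 comparisons. At an unadjusted limma p under 0.05 there were 7 and 4 at 30 weeks (8.86% against 13.5% of all genes, and 5.06% against 7.21%) and 0 at 10 weeks. Array weights that did not converge called 36 (45.6% against 63.6%) and 11 (13.9% against 20.8%) at 30 weeks. At that age 66 of 78 members of the mitochondrial family had higher means in each line, with medians of 0.25 and 0.17. Of all genes tested, 50.9% and 50% had higher means. A large share of higher means at 30 weeks was thus not particular to the mitochondrial family. The difference between the families was not tested.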

How the data were processed

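Total RNA of 18 libraries was sequenced. Per the labels and the study's methods, the authors trimmed reads (Trim Galore 0.4.1, cutadapt 1.18), aligned them (STAR 2.7.3a) to GRCm38, quantified genes with Salmon against GENCODE and normalized with DESeq2 1.26. The deposited values are a signal, namely estimated counts divided by a size factor, in 4 tables of 6 libraries. All of these values (100%, tolerance 0.01) were whole multiples of 1 read, and reads were recovered as value over step. For the same WT-TRAMP library only 30.9% to 37.6% of genes with reads had identical recovered reads in both tables of an age, so most differed between the tables. Tables of the authors' own comparisons (log2 fold change, error, s-value) were not used. Columns carry library numbers, and WT-TRAMP columns are those present in both tables of an age.

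Each table was tested by itself with limma 3.58.1 (lmFit, eBayes with trend, two-sided) on log2(normalized count + 1), for genes with a mean of at least 10, with Benjamini-Hochberg adjustment over all genes and a threshold of 0.05. The difference between ages was an interaction over 12 libraries with an intercept for each table. edgeR 4.0.16 and DESeq2 1.42.0 on recovered reads, other pseudocounts, filters and scalings, array weights and leaving out each library were alternatives, and leaving out libraries with over 1% seminal vesicle reads was added after seeing the data. In simulated data with a negative binomial size of 20, a log2 fold of 1 was recovered for 50.6%, 40%, 55.2% and 41.2% of changed genes (KO-TRAMP and A537T-TRAMP at 10 weeks, then at 30 weeks, among 15388, 15373, 16835 and 16202 genes), and a log2 fold of 2 for 98.2%, 100%, 100% and 99.0%, with 10, 6, 8 and 4 false calls. Folds smaller than these were not simulated. The size of 20 was fixed for every gene and was not estimated from these mice. The simulated spread may therefore differ from theirs, and the rates need not hold for these groups. The members' log2 fold changes ran from -0.44 to 0.80 in the 4 comparisons, so recovery at their own sizes is not known from the simulation. With 3 mice a group, an exact permutation test of 1 gene cannot go below 0.1 and was not used. Differences are on the log2(value + 1) scale, which slightly understates those of low genes.

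The members, role lists and marker lists were chosen with earlier results of these data known. Genes were named if fixed for their role, if among the 4 higher and 4 lower members of smallest p in a comparison, if called (at most 10 a comparison), or if among the 3 highest and 3 lowest by level, 42 in all. Symbols came from a gene table (55107 of 55469 IDs), exon lengths from GENCODE on GRCm38, and promoters from RefSeq. Analyses ran in R 4.3.3 and Python 3.11.15.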

Additional observations from a re-analysis of the deposited data

Results flagged for a closer look

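Mrpl38 in A537T-TRAMP was singled out because its difference from WT-TRAMP took opposite signs at the 2 ages in every library. The effect at 30 weeks minus the effect at 10 weeks was 0.59 on the log2 scale, with all 3 A537T-TRAMP libraries below all WT-TRAMP libraries at 10 weeks and all 3 above at 30 weeks. The limma interaction test of this difference did not pass (adjusted p = 0.721), and groups of 3 are too small to single out one library by its distance from the others.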

How the results depend on the processing

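With limma array weights, which let libraries count unequally, the members called were 53 in KO-TRAMP (45 higher; 67.9% against 63.6% of all genes) and 23 in A537T-TRAMP (21 higher; 29.5% against 20.8%) at 30 weeks, and 19 (24.4% against 31.6%) and 14 (17.9% against 10.3%) for the differences between ages, but the weights did not converge in these fits and ran from 0.0970 to 170 in the first. At 10 weeks they called 0 (0.0129% and 0.0259% of all genes). In KO-TRAMP at 30 weeks 3 of the 53 turned sign, namely Mrps25 (from 0.04 to -0.31), Mrpl19 (-0.27) and Mrps12 (0.22). Without libraries over 1% seminal vesicle reads the A537T-TRAMP median at 10 weeks turned to 0.18. Leaving out each library gave 0 to 5 called members in KO-TRAMP at 30 weeks and 0 to 4 for its difference between ages (4 without library 16; 5.13% against 11.8% of all genes). The medians then ran from -0.10 to 0.05 and from 0.18 to 0.32 in KO-TRAMP at 10 and 30 weeks, from -0.24 (without library 4) to -0.0096 and from 0.09 to 0.24 in A537T-TRAMP, and for the differences between ages from 0.14 (without KO-TRAMP library 8) to 0.36 and from 0.19 to 0.39. Scaling to library totals (CPM) gave 42 of 78 higher members in KO-TRAMP (median 0.02, against 31) and 14 in A537T-TRAMP (median -0.16, against 23) at 10 weeks, and 72 (median 0.32) and 60 (median 0.11, against 0.17) at 30 weeks. The median over all genes moved in the same directions, to 0.06 and -0.08 at 10 weeks and to 0.07 and -0.06 at 30 weeks. With this scaling, 9408 of 15444 genes (KO-TRAMP) and 6169 of 15432 (A537T-TRAMP) had higher means at 10 weeks. At 30 weeks these were 9603 of 16907 and 6502 of 16271. The cause of these changes was not tested. The other alternatives left the counts of called members at 0. No paired analysis was possible because the columns carry no replicate numbers that the groups share. Each member had at least 46 reads in every library, and whether depth or the number of mice limited the calls was not tested.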
